A study of Homo sapiens with 12 samples.

Results

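The 4 arrays labelled JJN3 were compared with the 4 arrays labelled RPMI-8226, 8 of the 12 arrays of the series, which were chosen by the cell line label and paired by treatment. The study asked how a BET bromodomain inhibitor, alone or with standard myeloma drugs, alters RNA levels in myeloma cell lines. Each line gave 1 array for each of 4 treatments of 6 h. These were untreated control cells, cells with 0.01 µM of the BET bromodomain inhibitor CPI203, cells with 5 µM lenalidomide and 0.05 µM dexamethasone (LenDex), and cells with all of these agents (Combo). JJN3 and RPMI-8226 are established human plasma cell malignancy lines, and the remaining 4 arrays, of the line ARP1, served here as context. The labels name no replicate cultures, so p-values measure the spread of the line difference over 4 treatments, which may hold technical and drug effects.

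Each value is a log2 probe set level, in which 1 unit is a doubling, and a line difference is JJN3 minus RPMI-8226 averaged over the 4 treatments. Where several probe sets carried the symbol of 1 gene alone, the one brightest on average across the 12 arrays stood for it, and the 15173 genes that reached a log2 level of 5 on 3 arrays or more entered the test. A gene was called at a limma adjusted p under 0.05, with treatment as a block and p-values adjusted by Benjamini-Hochberg across the 15173 genes. Errors given with a difference are standard errors.

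Plasma cells secrete immunoglobulin and carry syndecan-1 (SDC1) on their surface, while mature B cells carry CD20 (MS4A1). JJN3 was derived from a plasma cell leukaemia making IgA with kappa light chains, RPMI-8226 secretes lambda light chains, and both are known to have a translocated MAF gene. Haemoglobin genes are transcribed in red cell precursors, where the transcription factors GATA1, TAL1, LMO2 and KLF1 work together, and the embryonic and foetal globins are normally silenced in adult cells.

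Defining markers of plasma cells went against the labels in both lines, although 14 to 15 of 22 measured plasma cell genes were at 6 or more in JJN3 and 11 to 13 in RPMI-8226, against 19 to 20 in ARP1. MS4A1 was at 11.89, 11.71, 11.63 and 11.70 on the JJN3 arrays (control, CPI203, LenDex and Combo, the order used throughout) and at 12.06, 11.70, 11.60 and 11.48 on the RPMI-8226 arrays. SDC1 did not exceed 5.79 in JJN3 or 5.38 in RPMI-8226, against a mean of 12.03 on the ARP1 arrays. PRDM1, the repressor that drives plasma cell differentiation, lay between 4.84 and 5.97 on the 8 arrays, against 11.31 in ARP1. MAF was at 6.47, 5.43, 5.68 and 5.39 in JJN3 and between 4.76 and 4.82 in RPMI-8226, against 11.18 in ARP1. "JJN3" and "RPMI-8226" below therefore mean the arrays so labelled. The JJN3 control array also stood apart from the other JJN3 arrays in the immunoglobulin genes IGHA1 and IGKC, and results that rest on it are given with and without it.

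Array medians lay between 5.304 and 5.375 over the series. As a sign of RNA quality, the GAPDH control probes at the 3' end minus those at the 5' end gave -0.22 to -0.189 in JJN3 (RPMI-8226, -0.216 to -0.087), and those of actin gave 0.307 to 0.406 (RPMI-8226, 0.226 to 0.448). A difference of 2-fold or more in mean level was found in 354 genes between JJN3 and RPMI-8226, against 2646 between ARP1 and JJN3 and 2619 between ARP1 and RPMI-8226. The number of arrays limits the precision of every value, and levels near 5 lie close to the array median, so a fold against such a level is a ratio of probe set values and may understate a ratio of transcripts.

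The lines differed at 2820 of the 15173 genes (18.6%), of which 1555 were higher in JJN3 (10.2%) and 1265 lower (8.34%). Most of these differences were small. The called difference was 2-fold or more in 349 genes (230 higher and 119 lower) and 8-fold or more in 22 higher and 6 lower. The median difference over all genes tested was 0.009 and the median absolute difference 0.151. For 2278 genes (15%) the 4 arrays of one line all lay above the 4 of the other. A rank test of 4 against 4 arrays cannot give a two-sided p under 0.0286, and 4 pairs cannot give one under 0.125. The called genes were spread over the genome, with 14.9% to 24.2% of the tested genes called on each of the 22 autosomes and chromosome medians between -0.035 and 0.046. With the test limited to the 8407 genes at a mean level of 6 or more, 3024 were called (1592 higher and 1432 lower). That share is larger than 18.6%, so a list of well-expressed genes can exceed 18.6% without standing out from genes of like level.

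**Figure D1:**
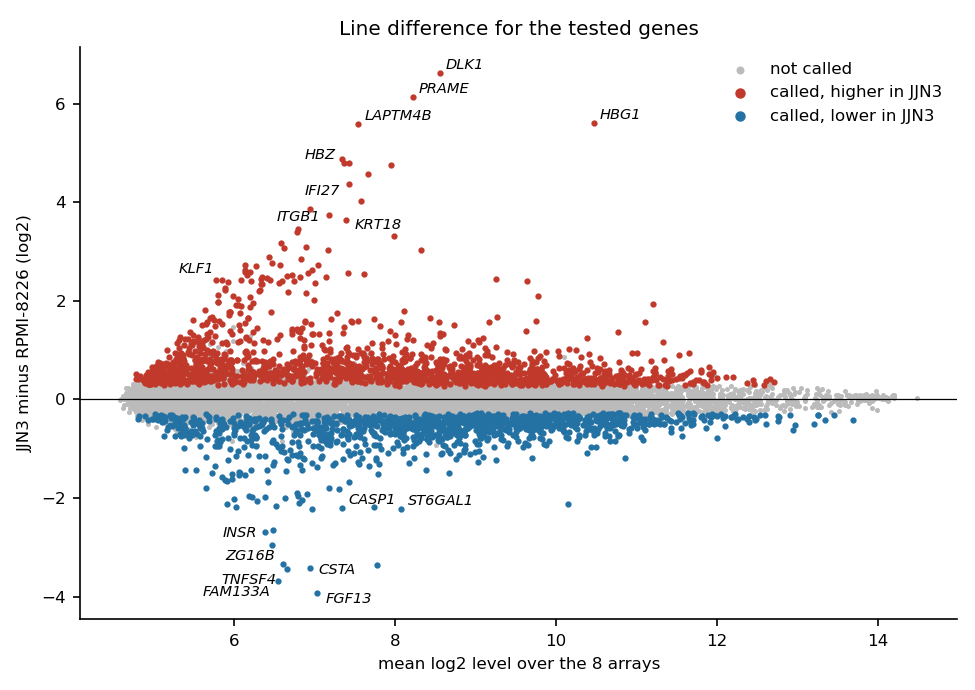
Line difference (JJN3 minus RPMI-8226, log2) against mean log2 level over the 8 arrays, 1 point per gene, for 15158 of the 15173 tested genes (15 genes of a list that is not named here are not drawn). Red and blue points are genes called higher and lower in JJN3 at an adjusted p under 0.05. Most of the largest differences in both directions have one line near the bottom of the scale, with HBG1 and ST6GAL1 among the exceptions.

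Of the lineage lists used here, the erythroid one held the most genes called higher in JJN3. Of 42 listed erythroid genes 33 were on the array and 30 were tested, and 16 of these were called higher and 1 lower, against 10.2% higher and 8.34% lower over all genes. The median difference of the 30 was 0.79, against 0.009 over all genes. The summed erythroid level (log2 of the sum over the 33 measured genes) ran from 14.49 to 14.68 in JJN3, above the RPMI-8226 range of 12.94 to 13.11. The ARP1 range, 13.96 to 14.13, lay between them and nearer to JJN3. This sum is weighted to the brightest genes, such as HBG1 (means 13.27 in JJN3, 7.66 in RPMI-8226 and 12.31 in ARP1). The median level of the 33 genes on each array was 5.73 to 6.88 in JJN3, 5.06 to 5.22 in RPMI-8226 and 5.37 to 5.56 in ARP1. Without the control pair 10 of the 30 were called higher and none lower, with a median of 0.66. Over all 15173 genes 1015 were higher and 752 lower without that pair. The list was drawn up with HBG1, HBZ, LMO2 and KLF1 already known to differ between these arrays, so its count is a description. In bulk RNA, more cells of a type and more transcript per cell cannot be told apart.

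The globins came first. HBG1, which encodes a foetal gamma globin chain, was at 13.30, 13.19, 13.32 and 13.25 in JJN3 and at 6.77, 8.43, 6.91 and 8.53 in RPMI-8226. All 4 JJN3 arrays were far above the RPMI-8226 arrays, and the RPMI-8226 arrays were higher with CPI203 or Combo than without it. The line difference was 5.61 ± 0.33 (48.7-fold, adjusted p = 0.000117), and 5.30 without the control pair (adjusted p = 0.00195). The near-identical gene HBG2 may share these probes. HBZ, the embryonic zeta chain, was at 9.94, 9.65, 9.94 and 9.51 in JJN3 and at 5.02, 5.14, 4.89 and 4.84 in RPMI-8226. The groups did not overlap, and the difference was 4.79 ± 0.11 (27.6-fold, adjusted p = 2.19e-06). The same gene was at 9.72 in ARP1.

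HBE1, the embryonic epsilon chain, was high in both lines but higher in JJN3, at 11.77, 11.98, 11.99 and 11.84 against 9.83, 10.71, 10.11 and 10.67 (difference 1.56 ± 0.15, adjusted p = 0.00107), while ARP1 had 6.57. The adult beta globin HBB stayed between 5.25 and 5.82 on the 8 arrays and was not called (difference 0.31 ± 0.11, adjusted p = 0.0853). The delta chain HBD was called, with a difference of 0.78 ± 0.21 (adjusted p = 0.046). HBG1 and HBZ thus held the largest differences of the erythroid list, and the beta chain of the adult was near the bottom of the scale in both lines.

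Of the transcription factors of the red cell lineage, 5 were called higher in JJN3, and their level in JJN3 fell into 2 pairs of arrays. KLF1, an activator of globin genes, was at 8.34, 5.99, 8.32 and 5.61 in JJN3 and between 4.51 and 4.74 in RPMI-8226. LMO2, a bridging protein of the GATA1 and TAL1 complex, was at 8.68, 5.36, 8.53 and 5.38 against 4.56 to 4.86. TAL1 was at 7.80, 6.12, 7.79 and 5.73 against 4.43 to 5.08. In each case the JJN3 control and LenDex arrays were high and the 2 JJN3 arrays with CPI203 were low but still above every RPMI-8226 array.

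GATA1, the lineage's main DNA-binding factor, was at 7.47, 6.09, 7.38 and 6.16 in JJN3 and between 5.23 and 5.51 in RPMI-8226. GFI1B, a repressor of red cell and platelet precursors, was at 6.96, 5.82, 6.45 and 5.52 against 4.98 to 5.52, so its lowest JJN3 array met the highest RPMI-8226 array. NFE2, a factor of the globin locus, was at 6.92, 5.23, 7.43 and 5.43 against 4.98 to 5.32 and overlapped between the lines. The line differences were 2.43 ± 0.49 for KLF1 (adjusted p = 0.016), 2.22 ± 0.59 for LMO2 (adjusted p = 0.0413), 2.12 ± 0.33 for TAL1 (adjusted p = 0.00629), 1.40 ± 0.26 for GATA1 (adjusted p = 0.0115) and 0.92 ± 0.25 for GFI1B (adjusted p = 0.0421). NFE2 was not called (1.12 ± 0.40, adjusted p = 0.102). Without the control pair the adjusted p was 0.0648 for KLF1 and 0.147 for LMO2. LMO2 also lost its call without the LenDex pair (0.116) and without the Combo pair (0.053).

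GATA2, which is shared with platelet and stem cell precursors, was at 8.33, 7.61, 8.21 and 7.34 in JJN3 and at 4.54, 4.76, 5.01 and 5.60 in RPMI-8226. The groups did not overlap, and the difference was 2.89 ± 0.29 (adjusted p = 0.00128). It was the only one called of 8 tested megakaryocyte genes (12.5%, against 18.6% over all genes), whose median was -0.01. Other platelet markers such as ITGA2B (4.75 to 5.20 on the 8 arrays) and GP9 (5.11 to 5.37) were near the bottom of the scale in both lines.

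Several genes of the red cell membrane and of haem turnover, but not all, were higher in JJN3. RHAG, an ammonium channel protein of the Rh complex, was at 8.80, 8.57, 9.01 and 8.29 against 6.00, 5.41, 5.50 and 5.67 (difference 3.02 ± 0.15, adjusted p = 5.07e-05). BLVRB, a biliverdin reductase abundant in red cells, was at 9.60, 9.63, 9.78 and 9.56 against 6.21, 6.09, 6.37 and 6.61 (difference 3.32 ± 0.11, adjusted p = 7.49e-06). Neither gene overlapped between the lines, and the JJN3 arrays with CPI203 lay within 1 log2 unit of those without it. In ARP1 the means of RHAG and BLVRB were 7.73 and 8.71. The Kell antigen gene KEL differed by 1.33 ± 0.12 (adjusted p = 0.000849) and the haem enzyme gene UROD by 1.01 ± 0.09 (adjusted p = 0.000831).

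Further called members were ANK1, HEMGN and the iron carrier SLC25A37, with differences between 0.64 and 1.17. TMOD1, which caps actin filaments, was the one lower in JJN3, by 0.49 ± 0.13 on the log2 scale (adjusted p = 0.0411). Several defining red cell genes were at the bottom of the scale in both lines. They were SLC4A1 (band 3 anion exchanger), between 4.89 and 5.26, and EPOR (erythropoietin receptor), between 4.73 and 5.22, together with AHSP, EPB42 and CA2, which did not pass the level filter. The erythroid difference was therefore one of part of the list, with 12 to 21 of 33 genes at 6 or more in JJN3 and 9 of 33 in RPMI-8226. In ARP1 11 of 33 were at that level.

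**Figure D2:**
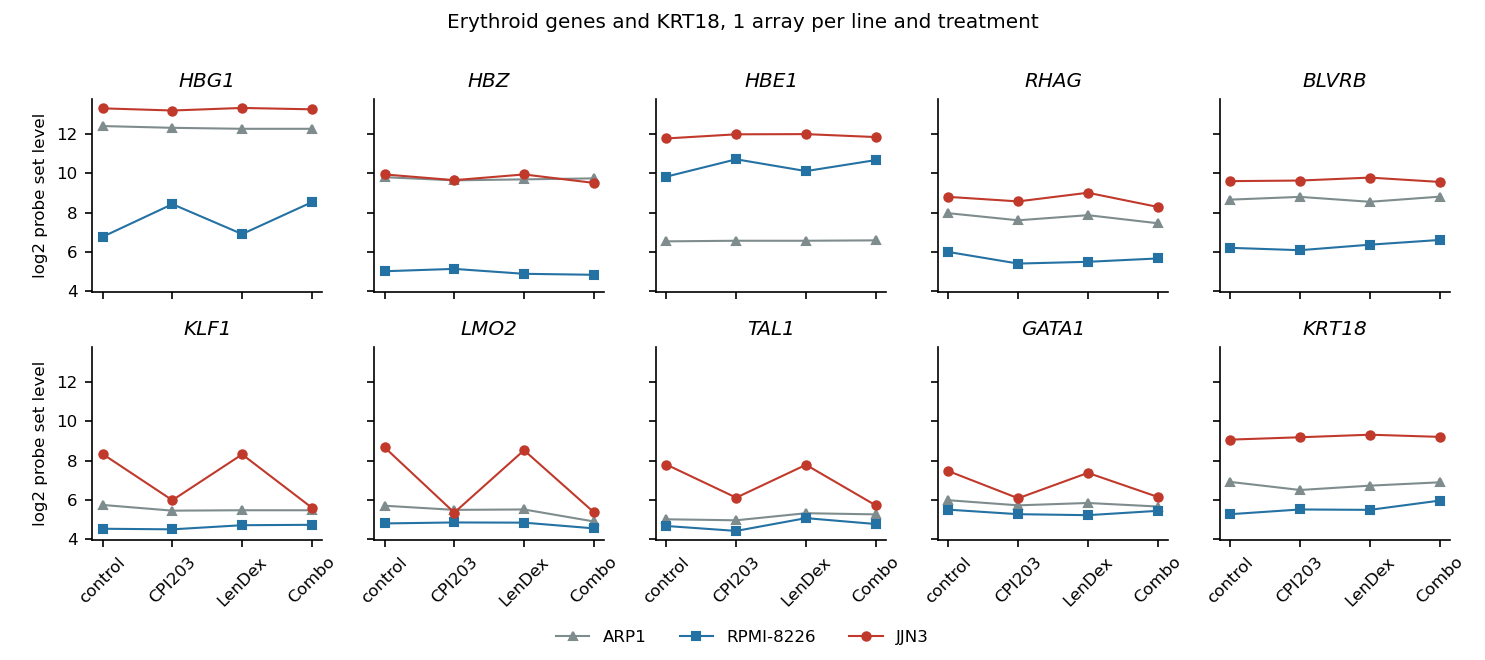
Log2 probe set level (y axis) by treatment (x axis) for 9 erythroid genes and KRT18, with 1 array per line and treatment and lines joining the arrays of a cell line. HBG1, HBZ, RHAG and BLVRB are high in JJN3 under every treatment, while KLF1, LMO2, TAL1 and GATA1 in JJN3 are lower on the CPI203 and Combo arrays than on the control and LenDex arrays.

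Promoters of 3 of the erythroid genes are shown because KLF1 and TAL1 shared the lower level with CPI203 while RHAG, a red cell membrane gene, stayed high on every JJN3 array. They are the 250 bases upstream of the start site in RefSeq (GRCh38.p14), written 5' to 3' on the gene's strand, and all 3 genes lie on the minus strand. Capitals mark 3 motifs of 5 letters, searched on both strands. The motif GATAA, which reads TTATC from the other strand, is the core that GATA factors recognise. The motif CACCC, reading GGGTG from the other strand, is a core bound by KLF1 and its relatives. The motif CCAAT, reading ATTGG from the other strand, is a common promoter element.
KLF1, chr19:12887202-12887451: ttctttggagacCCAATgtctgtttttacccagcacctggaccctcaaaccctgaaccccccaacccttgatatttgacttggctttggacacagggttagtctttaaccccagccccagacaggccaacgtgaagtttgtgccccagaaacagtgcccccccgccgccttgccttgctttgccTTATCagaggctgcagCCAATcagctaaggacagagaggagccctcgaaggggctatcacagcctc
TAL1, chr1:47232336-47232585: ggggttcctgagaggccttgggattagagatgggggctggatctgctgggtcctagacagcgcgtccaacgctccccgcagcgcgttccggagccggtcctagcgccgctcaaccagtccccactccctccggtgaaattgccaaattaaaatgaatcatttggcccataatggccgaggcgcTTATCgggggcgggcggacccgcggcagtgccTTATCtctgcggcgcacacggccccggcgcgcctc
RHAG, chr6:49636840-49637089: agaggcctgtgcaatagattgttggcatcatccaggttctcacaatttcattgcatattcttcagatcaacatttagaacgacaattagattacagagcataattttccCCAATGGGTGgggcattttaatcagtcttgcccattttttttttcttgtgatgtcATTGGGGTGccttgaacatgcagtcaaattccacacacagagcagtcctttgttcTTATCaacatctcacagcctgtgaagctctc

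The 3 windows printed held the GATA core, with 2 matches in TAL1 and 1 each in KLF1 and RHAG. TAL1 has a second start site in RefSeq, with the window chr1:47231716-47231965, which held 0 GATAA and 1 CACCC and is not printed. In RHAG the 2 CCAAT motifs each adjoin or overlap a CACCC motif, so that their capitals run together. Of the 16 called-higher erythroid genes 10 had a promoter entry, and among these GATAA was found in 6, CACCC in 3 and CCAAT in 3. HBG1, HBZ, HBE1 and LMO2 were among those without an entry, so these counts do not cover them. With the first entry of each gene, over the 12193 tested genes with an entry the shares were 14.9%, 58.4% and 34.8%. A match of 5 letters is a description of the sequence and does not show binding.

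The lower level of the red cell transcription factors with CPI203 was tested as a change in the line difference, over all 12 arrays. No gene was called by limma in this comparison (0% of 15173), and 1197 had an unadjusted p under 0.05. The 3 smallest p-values belonged to LMO2, NFE2 and KLF1, and the next, TRIB2, tied with them after adjustment. For LMO2 the line difference was 3.77 on the arrays without CPI203 and 0.66 on those with it, a change of -3.11 ± 0.19 (adjusted p = 0.0602). For KLF1 it was 3.70 and 1.17, a change of -2.53 ± 0.20, and for NFE2 2.17 and 0.08, a change of -2.09 ± 0.16, with the same adjusted p for both.

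These changes lay in JJN3. The level in JJN3 was 3.24 lower with CPI203 for LMO2, against 0.12 lower in RPMI-8226, where the gene was near the bottom of the scale. The 3 genes sat just outside the threshold. They passed with no level filter (adjusted p between 0.0406 and 0.0451) and without the drug-by-drug term (0.0184 for LMO2), and did not with the 8 arrays alone (0.113 for LMO2 and 0.115 for KLF1). TAL1 (-1.59 ± 0.17, adjusted p = 0.123), GATA1 (-1.29 ± 0.16, adjusted p = 0.218) and HEMGN (-1.43 ± 0.18, adjusted p = 0.212) had changes of the same sign that were not called. These genes were looked at because of their place in the erythroid list.

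HBG1 differed in where the change lay. Its level in JJN3 was 0.09 lower with CPI203, while in RPMI-8226 it was 1.64 higher, so the line difference was 6.47 without CPI203 and 4.74 with it (change -1.73 ± 0.15, adjusted p = 0.0687). For LenDex no gene was called either (0% of 15173), with 1360 at an unadjusted p under 0.05. The smallest p-values belonged to ZNF682, a zinc finger gene, SOX9, a developmental transcription factor, and KLF9, a glucocorticoid-responsive factor. ZNF682 was 2.21 higher with LenDex in RPMI-8226 and 0.26 lower in JJN3. SOX9 was 0.98 lower with LenDex in RPMI-8226 and 0.15 higher in JJN3. KLF9 was 1.01 higher in JJN3 and 0.29 lower in RPMI-8226. Their adjusted p was 0.497.

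DLK1 and PRAME had the largest differences of all tested genes. DLK1, a membrane-bound relative of Notch ligands found on immature cells, was at 11.88, 11.86, 11.86 and 11.84 in JJN3 and at 5.17, 5.78, 5.23 and 4.76 in RPMI-8226. The JJN3 arrays varied little, and the difference was 6.62 ± 0.15 (98.7-fold, adjusted p = 2.19e-06). On the other, dimmer DLK1 probe sets it was 2.64 to 3.36, so the fold depends on the probe set. PRAME, a cancer-testis antigen, was at 11.48, 11.23, 11.45 and 10.98 against 5.03, 5.13, 5.31 and 5.15 (difference 6.13 ± 0.11, 70.1-fold, adjusted p = 1.93e-06). Both genes were far above every RPMI-8226 array on all treatments, and both were also high in ARP1, at 10.13 and 9.02.

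Of 11 tested cancer-testis antigen genes 3 were higher and 1 lower, with a median of -0.01 (36.4% called, against 18.6% over all genes). MAGEC2 was at 7.28, 6.44, 7.51 and 6.57 in JJN3 and between 4.98 and 5.55 in RPMI-8226 (difference 1.76 ± 0.17, adjusted p = 0.000973). MAGEA12 went the other way, at 5.37 or less in JJN3 and at 7.59, 7.12, 5.99 and 6.59 in RPMI-8226 (difference -1.53 ± 0.21, adjusted p = 0.00439). MAGEA1 was high in both lines, between 9.29 and 9.84, and was not called.

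The largest differences also included genes that were on none of the lists. LAPTM4B, a lysosomal membrane protein, was at 10.18, 10.32, 10.46 and 10.34 in JJN3 and between 4.56 and 4.93 in RPMI-8226 (difference 5.58 ± 0.12). Its dimmer probe sets differed by 2.85 and 2.93. KCNH2, a potassium channel, was at 10.26, 9.25, 10.22 and 9.37 against 4.53 to 5.19 (4.87 ± 0.19), with its 2 lower JJN3 values on the CPI203 arrays. The dimmer KCNH2 probe sets differed by 2.17 and 0.55. The neuropeptide genes GAL and NMU differed by 4.79 ± 0.15 and 4.75 ± 0.14. TUBB6, a beta tubulin, differed by 4.58 ± 0.14, and OAT, the mitochondrial ornithine aminotransferase, by 4.02 ± 0.16. MPP1, a scaffold protein of the red cell membrane that was not on the erythroid list, differed by 3.87 ± 0.13, and BZW2, a translation regulator, by 3.45 ± 0.12. Each of these genes had an adjusted p of 1.67e-05 or below and no overlap between the lines.

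ITGB1, the beta chain shared by many matrix-binding integrins, was at 8.99, 9.09, 8.99 and 9.09 in JJN3 and at 5.17, 5.06, 5.62 and 5.35 in RPMI-8226. The gap of 3.74 ± 0.12 (adjusted p = 6.72e-06) was at least as wide under every treatment as the range within either line. ARP1 had 11.56. Of 21 tested integrin and adhesion genes 4 were higher and 3 lower, with a median of 0.13 (33.3% called, against 18.6% over all genes). ITGB7, the partner of the alpha 4 chain in gut homing, was higher (0.89 ± 0.18), while that chain's gene ITGA4 was lower (-0.68 ± 0.09, adjusted p = 0.00423). VCAM1, an adhesion ligand, was at 7.04, 5.25, 5.28 and 4.96 in JJN3 and at 9.07, 7.62, 8.16 and 5.69 in RPMI-8226 (4-fold lower, adjusted p = 0.00606, and -1.99 with an adjusted p of 0.0369 without the control pair), and the ranges overlapped because the RPMI-8226 Combo array lay below the JJN3 control array.

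The keratin pair of simple epithelium was higher in JJN3. KRT18 was at 9.07, 9.19, 9.32 and 9.21 in JJN3 and at 5.28, 5.52, 5.50 and 5.97 in RPMI-8226 (difference 3.63 ± 0.11, adjusted p = 6.72e-06). Its partner KRT8 was at 7.06, 7.72, 7.60 and 7.58 against 5.45, 5.16, 5.05 and 4.97 (2.33 ± 0.17, adjusted p = 0.00035). KRT18 was at 6.76 in ARP1 and KRT8 at 5.78, so both were higher in JJN3 than in either other line, although the difference from ARP1 was not tested.

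Of the 11 tested epithelial genes 5 were called higher and none lower, with a median of 0.12 (over all genes, 10.2% were higher and 8.34% lower). EPCAM, an epithelial adhesion protein, was at 6.63, 5.91, 7.17 and 6.39 in JJN3 and between 4.69 and 5.09 in RPMI-8226 (1.64 ± 0.23, adjusted p = 0.00435), and KRT19 differed by 1.04 ± 0.19 (adjusted p = 0.0116). The defining adhesion genes CDH1 (4.57 to 5.24 on the 8 arrays) and CLDN7 (5.08 to 5.29) were near the bottom of the scale. The summed level of the 12 measured epithelial genes ran from 10.31 to 10.49 in JJN3, against 8.93 to 9.13 for RPMI-8226, and its part in the other line differences was not tested. Of 5 tested fibroblast genes limma called none (1 had an unadjusted p under 0.05), and no fibroblast gene reached a level of 6 on these arrays. Of 7 tested monocyte and macrophage genes 2 were called, LYZ and ITGAM, both under a level of 6 in both lines.

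CD3D, a subunit of the T cell receptor complex, was at 7.59, 7.33, 7.46 and 7.68 in JJN3 and between 5.05 and 5.39 in RPMI-8226 (difference 2.33 ± 0.12, adjusted p = 5.29e-05). It was the only called gene of 11 tested T cell markers (9.09%, against 18.6% over all genes). Its partners CD3E (4.71 to 5.18 on the 8 arrays) and CD3G (4.97 to 5.47) were near the bottom of the scale in both lines.

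The genes lower in JJN3 had smaller differences. FGF13, an intracellular relative of fibroblast growth factors, was at 5.24, 4.94, 4.97 and 5.09 in JJN3 and at 8.77, 9.16, 8.95 and 9.08 in RPMI-8226 (difference -3.93 ± 0.12, 15.2-fold lower, adjusted p = 6.72e-06). Its dimmer probe sets differed by -0.89 and -1. TNFSF4, the ligand of the co-stimulatory receptor OX40, was at 4.98, 4.84, 5.09 and 4.80 in JJN3 and at 9.21, 8.09, 8.89 and 7.30 in RPMI-8226 (-3.45 ± 0.25, adjusted p = 0.000334), with the RPMI-8226 level lower on the arrays with CPI203. The dimmer TNFSF4 probe set differed by -1.09. CSTA, the protease inhibitor cystatin A, stayed at or below 5.28 in JJN3 and at or above 8.55 in RPMI-8226 (-3.42 ± 0.08, adjusted p = 2.41e-06). These 3 genes were near the bottom of the scale in JJN3 and in ARP1, where their means were 4.89 to 5.20.

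Further genes of this kind were FAM133A, CES5A, ZG16B and IL13RA2, a decoy receptor of interleukin-13, with differences between -3.69 and -2.95. INSR, the insulin receptor, had a mean of 5.03 in JJN3, with 5.41 as its highest array, and of 7.74 in RPMI-8226 (-2.70 ± 0.23, adjusted p = 0.000603). In ARP1 it was at 6.92, 7.16, 10.14 and 9.86. With LenDex it was 1.09 higher in RPMI-8226 and 0.03 higher in JJN3, and the pair differences ran from -1.97 to -3.45. ST6GAL1, which adds sialic acid to glycans, was at 6.76, 5.80, 7.95 and 7.33 against 8.94, 8.38, 10.02 and 9.42 (-2.23 ± 0.11, adjusted p = 4.59e-05), so that both lines followed the treatments with a near-constant gap. IVL, SERPINA1, CASP1, PTPRE, EOMES and AQP9 made up the remaining largest differences, between -2.65 and -2.17. The inflammatory protease CASP1 reached 6.40 at most in JJN3 and 7.91 at least in RPMI-8226. For AQP9 the median over its probe sets differed by only -0.07 (adjusted p = 0.674).

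Many cell cycle genes were lower in JJN3, by small amounts. Of 22 genes of the G2 and M phases 18 were called lower and none higher, against 8.34% lower over all genes, with a median of -0.47. CENPF, a kinetochore protein, was at 9.32, 9.50, 9.39 and 9.42 in JJN3 and at 10.08, 10.35, 10.10 and 10.24 in RPMI-8226 (difference -0.78 ± 0.08, adjusted p = 0.00123). The mitotic kinase AURKB was at 10.09, 10.43, 10.19 and 10.40 against 10.93, 11.14, 10.94 and 11.09 (-0.75 ± 0.08, adjusted p = 0.00148). In both genes all 4 JJN3 arrays lay below all RPMI-8226 arrays. MKI67, the proliferation marker Ki-67, differed by -0.61 ± 0.09 (adjusted p = 0.00437), whereas TTK (-0.05 ± 0.08, adjusted p = 0.711) and TOP2A (-0.17 ± 0.08, adjusted p = 0.18) were not called.

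Of 22 genes of the G1 and S phases 14 were lower and none higher, with a median of -0.38 (over all genes, 10.2% were higher and 8.34% lower). E2F2, a transcription factor of S phase entry, was at 7.44, 6.78, 7.86 and 7.11 in JJN3 and at 8.52, 7.69, 8.81 and 7.88 in RPMI-8226 (-0.92 ± 0.09, adjusted p = 0.000926). The ribonucleotide reductase subunit RRM2 differed by -0.83 ± 0.08 and GINS2, part of the replicative helicase, by -0.88 ± 0.14. PCNA (-0.12 ± 0.09, adjusted p = 0.421) was not called. Without the treatment block 8 of the 22 genes of the G2 and M phases and 2 of the 22 of the G1 and S phases were called lower. Over all genes 519 of 15173 were lower without the block. Of 10 cyclin-dependent kinase genes and their inhibitors 2 were higher and 2 lower. CDKN1C, an inhibitor of the kinases of G1, was at 6.19, 7.99, 6.16 and 7.60 in JJN3 and 4.78 to 5.38 in RPMI-8226 (1.92 ± 0.33, adjusted p = 0.00925), with the 2 high JJN3 values on the CPI203 arrays. CDK6 was lower (-0.50 ± 0.10, adjusted p = 0.0137).

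Of 17 tested histone genes 12 were higher in JJN3 and 1 lower, with a median of 0.90 (over all genes, 10.2% were higher and 8.34% lower). H2BC12 was at 11.89, 12.60, 11.72 and 12.51 in JJN3 and at 8.79, 11.36, 9.65 and 11.17 in RPMI-8226 (difference 1.94 ± 0.29, adjusted p = 0.00562). H3C4 was at 7.37, 9.82, 7.73 and 9.28 against 5.87, 7.90, 6.01 and 7.92 (1.63 ± 0.11, adjusted p = 0.000235). In both genes both lines were higher on the arrays with CPI203, and JJN3 was above RPMI-8226 within every treatment.

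The linker histone H1-2 differed by 1.59 ± 0.24. H4C3 was the one lower, with -0.41 ± 0.08 (adjusted p = 0.0153). The CPI203 arrays of both lines differed from the others in these genes, and without the treatment block 1 histone gene was called higher and 1 lower. Over all 15173 genes 644 were higher and 519 lower without the block. H2BC21 was called at 1.57 ± 0.19, but the median over its probe sets differed by -0.18. Histone probe sets may also pick up near-identical family members.

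**Figure D3:**
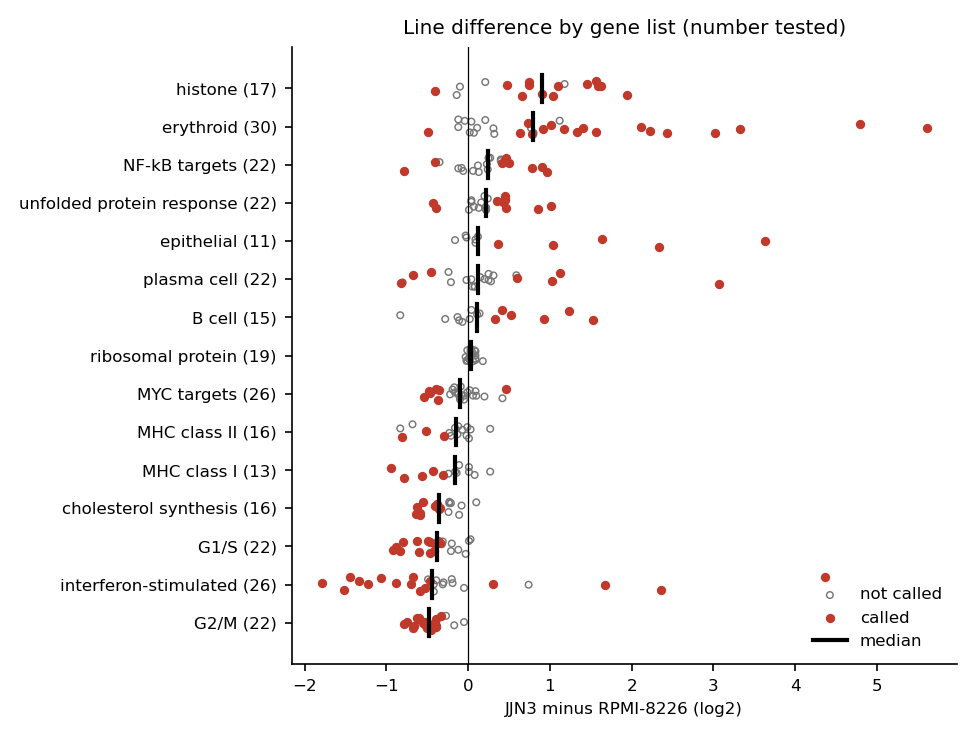
Line difference (JJN3 minus RPMI-8226, log2) of the tested genes of 15 lists, with the number tested in parentheses, called genes filled, other genes open and the list median as a bar. Histone and erythroid medians are 0.90 and 0.79, those of G2/M and G1/S genes are -0.47 and -0.38, and ribosomal protein genes lie within -0.03 to 0.18.

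Interferon-stimulated genes differed in both directions. Of 26 tested genes 12 were lower, 4 higher and 10 not called, with a median of -0.45 (over all genes, 10.2% were higher and 8.34% lower). MX1, an antiviral GTPase, was at 6.46, 6.17, 6.46 and 6.02 in JJN3 and at 8.83, 7.63, 8.37 and 7.44 in RPMI-8226 (difference -1.79 ± 0.16, adjusted p = 0.000898). IFIT3 differed by -1.44 ± 0.21, IFI44 by -1.33 ± 0.12 and ISG15, a ubiquitin-like modifier, by -0.88 ± 0.10. In MX1, IFIT3, IFI44 and ISG15 the 4 JJN3 arrays lay below the 4 RPMI-8226 arrays.

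IFI27, a mitochondrial interferon-induced protein, went the other way, at 9.67, 9.65, 9.51 and 9.59 in JJN3 and at 5.30, 5.10, 5.11 and 5.44 in RPMI-8226 (4.36 ± 0.09, 20.6-fold, adjusted p = 1.96e-06). The dimmer IFI27 probe set differed by 2.19. IFITM2, which restricts viral entry, differed by 2.36 ± 0.10 and OAS3, a sensor of double-stranded RNA, by 1.67 ± 0.10. The dimmer OAS3 probe sets differed by 0.11 and -0.12. OAS2, of the same enzyme family, was lower (-1.23 ± 0.11, adjusted p = 0.000727). The list therefore did not move one way, and IFI27 and OAS3 were at 5.33 and 4.85 in ARP1.

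Of 13 tested genes of MHC class I antigen presentation 5 were lower and none higher, with a median of -0.16 (over all genes, 10.2% were higher and 8.34% lower). NLRC5, the transactivator of class I genes, was at 6.59, 6.38, 6.54 and 6.52 in JJN3 and at 7.92, 7.18, 7.40 and 7.30 in RPMI-8226 (-0.94 ± 0.11, adjusted p = 0.00246), and the peptide transporter TAP2 differed by -0.78 ± 0.08. The class I genes HLA-B (-0.11 ± 0.08, adjusted p = 0.396) and B2M (0.08 ± 0.08, adjusted p = 0.547) were not called. Of 16 tested class II genes 3 were called (18.8%, against 18.6% over all genes), all of them lower and with a list median of -0.15, among them HLA-DMA (-0.81 ± 0.14, adjusted p = 0.00841). HLA-DRA was between 13.31 and 13.47 on all 8 arrays and was not called. HLA-DQB1 was called at -0.51 ± 0.09, but the median over its probe sets differed by 0.02.

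B cell genes such as MS4A1 were high in both lines. Of 15 tested 6 were higher in JJN3 and none lower, with a median of 0.11 (40% called, against 18.6% over all genes). Among the 8407 genes at a mean level of 6 or more the share called was larger than 18.6% (3024 genes). CD37, a tetraspanin of mature B cells, was at 10.92, 11.01, 10.96 and 11.09 in JJN3 and at 9.76, 9.74, 9.71 and 9.84 in RPMI-8226 (1.24 ± 0.08, adjusted p = 0.000153). The transcription factor SPIB was at 7.82, 8.45, 7.05 and 7.55 against 6.39, 6.39, 5.85 and 6.14 (1.53 ± 0.14, adjusted p = 0.000934), and FCER2, the CD23 antigen, differed by 0.93 ± 0.09. In these genes the lines did not overlap. PAX5 (-0.13 ± 0.09, adjusted p = 0.391) and EBF1 (0.14 ± 0.08, adjusted p = 0.287), which maintain B cell identity, were not called. Under cyclic loess normalization of the arrays 4 of the B cell genes were called higher and 1 lower. Over all genes 1453 were higher and 1416 lower under that normalization.

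Of 22 tested plasma cell genes 4 were higher and 3 lower, with a median of 0.12 (31.8% called, against 18.6%). JCHAIN, which joins polymeric IgA and IgM, was at 9.63, 7.71, 7.80 and 7.46 in JJN3 and between 4.85 and 5.43 in RPMI-8226 (difference 3.07 ± 0.26, adjusted p = 0.000603, and 2.69 with an adjusted p of 0.000241 without the control pair). SLAMF7, a surface antigen of plasma cells, was at 9.99, 9.34, 7.80 and 7.17 against 8.41, 7.51, 7.03 and 6.83 (1.13 ± 0.24, adjusted p = 0.0183, and 0.0834 without the control pair). The dimmer SLAMF7 probe sets differed by 0.28 to 0.67. TNFRSF13B, a receptor of the survival factors BAFF and APRIL, was lower (-0.82 ± 0.19, adjusted p = 0.0267). XBP1 (0.04 ± 0.08, adjusted p = 0.778) and IRF4 (-0.24 ± 0.09, adjusted p = 0.102), factors of plasma cells, were not called. The immunoglobulin mu gene IGHM was lower in JJN3, at 8.93, 8.04, 8.69 and 8.58 against 9.90, 9.34, 9.62 and 9.02 (-0.91 ± 0.14, adjusted p = 0.00577).

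Stress and metabolic genes differed in both directions. Of 22 tested genes of the unfolded protein response 8 were higher and 2 lower, with a median of 0.22 (45.5% called, against 18.6% over all genes). PPP1R15A, a phosphatase subunit that restores translation after stress, was at 8.90, 9.86, 8.72 and 9.89 in JJN3 and at 7.57, 8.91, 7.75 and 9.06 in RPMI-8226 (1.02 ± 0.10, adjusted p = 0.00129). DNAJB9, an endoplasmic reticulum co-chaperone, differed by 0.85 ± 0.13, and HSPA5 and XBP1 were not called. Of 16 tested cholesterol synthesis genes 9 were lower and none higher, with a median of -0.35 (8.34% lower over all genes). The prenyl synthase gene FDPS was at 10.66, 10.69, 10.65 and 10.51 against 11.35, 11.27, 11.17 and 11.07 (-0.59 ± 0.08, adjusted p = 0.00377), with all JJN3 arrays below all RPMI-8226 arrays, and HMGCS1 differed by -0.64 ± 0.17 (adjusted p = 0.0438). The count was 4 without the control pair, 3 without the CPI203 pair, 3 without the Combo pair and 2 without the treatment block. Over all 15173 genes the counts of lower genes were 752, 697, 671 and 519 in the same order.

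Of 22 tested NF-kB target genes 7 were higher and 2 lower, with a median of 0.24 (over all genes, 10.2% were higher and 8.34% lower). NFKBIE, an inhibitor of the pathway, differed by 0.97 ± 0.11 (adjusted p = 0.00201) and the chemokine gene CCL22 by 0.90 ± 0.08, while the chemokine gene CCL3 differed by -0.79 ± 0.09. The anti-apoptotic gene BCL2A1 was the only one called of 16 tested BCL2 family genes (0.50 ± 0.10, adjusted p = 0.0166). Of 19 tested ribosomal protein genes limma called none, and 0 had an unadjusted p under 0.05, with a median of 0.03 and a range of -0.03 to 0.18. Of 10 tested housekeeping genes 2 were higher and 2 lower (40% called), with a median of -0.02 and a range of -0.38 to 0.40.

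Among genes of the drugs' own pathways, the shares called were 7.69% of the BET list, 21.4% of the cereblon list and 20% of the glucocorticoid targets, against 18.6% over all genes. Of 13 tested genes of BET proteins and the elongation factor P-TEFb 1 was called, AFF4, a scaffold of the elongation complex (0.58 ± 0.11, adjusted p = 0.0123), whose median over probe sets differed by -0.02. BRD2 differed by -0.06 ± 0.14 and BRD3 by -0.03 ± 0.08. Of 14 genes of cereblon and its substrates 1 was higher and 2 lower. CRBN, the receptor of lenalidomide, differed by -0.11 ± 0.09 (95% confidence interval -0.32 to 0.11, adjusted p = 0.494). Its substrate IKZF1 was at 9.80, 8.07, 9.13 and 7.94 in JJN3 and at 10.25, 8.76, 10.03 and 8.84 in RPMI-8226 (-0.74 ± 0.10, adjusted p = 0.00437), whereas IKZF3 differed by -0.14 ± 0.12 (adjusted p = 0.511).

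MYC was at 11.97, 11.61, 11.62 and 11.33 in JJN3 and at 11.79, 10.74, 11.38 and 10.70 in RPMI-8226 (0.48 ± 0.13, adjusted p = 0.0423). Of 26 tested MYC target genes 1 was higher and 6 lower, with a median of -0.10 (26.9% called, against 18.6%). ODC1, of polyamine synthesis, differed by -0.54 ± 0.08 (adjusted p = 0.00513). Of 15 tested glucocorticoid target genes 3 were higher and none lower (median 0.24). SGK1, a kinase of that response, was at 5.92, 6.89, 6.61 and 7.08 against 5.91, 5.21, 5.28 and 5.46 (1.16 ± 0.26, adjusted p = 0.0243), and the glucocorticoid receptor gene NR3C1 was not called (-0.16 ± 0.08, adjusted p = 0.219).

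Within each treatment the medians of 4 lists kept their sign but varied in size. The erythroid median was 1.32 on control, 0.50 with CPI203, 0.99 with LenDex and 0.39 with Combo, with 23 to 27 of the 30 genes higher in JJN3. The histone median lay between 0.82 and 1.06 and that of the genes of the G2 and M phases between -0.57 and -0.36. The interferon-stimulated median was -0.65 on control, -0.49 with CPI203, -0.39 with LenDex and -0.14 with Combo. The differences between treatments in these medians were not tested.

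**Figure D4:**
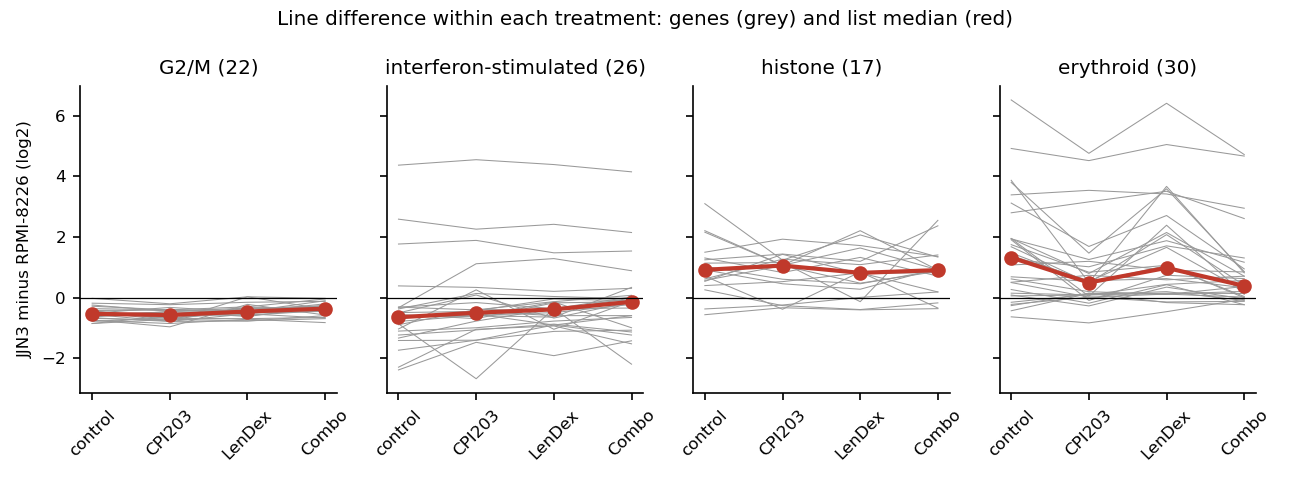
Line difference within each treatment (JJN3 minus RPMI-8226, log2, 1 array per line) for the tested genes of 4 lists, with each gene as a grey line and the list median in red. Erythroid medians are lower on the 2 treatments with CPI203 (0.50 and 0.39) than on control and LenDex (1.32 and 0.99), and histone medians stay between 0.82 and 1.06.

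The genes that were much higher in JJN3 were often also present in ARP1. Of 62 genes called 4-fold or more higher in JJN3 with a RPMI-8226 mean under 6, 42 (67.7%) had an ARP1 mean of 6 or more, against 856 of 7046 (12.1%) of all tested genes with a RPMI-8226 mean under 6. DLK1, PRAME, HBG1, HBZ and LAPTM4B were among them, with ARP1 means of 10.13, 9.02, 12.31, 9.72 and 8.42. In the other direction 2 of 17 genes (11.8%) with a JJN3 mean under 6 had an ARP1 mean of 6 or more, against 740 of 6876 (10.8%). The JJN3 level was not everywhere the nearer to ARP1: KLF1, LMO2, TAL1 and HBE1 had ARP1 means of 5.54, 5.41, 5.15 and 6.57, below JJN3. What the shared genes come from was not tested.

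The JJN3 control array was far above the other 7 arrays in IGHA1 and IGKC, but not in IGHM (8.93, below all 4 RPMI-8226 arrays) or IGLL5 (9.68, against 10.48 on the RPMI-8226 control array). IGHA1, the constant region of IgA heavy chains, was at 9.84, 5.72, 5.52 and 6.24 in JJN3 and at 5.42, 5.39, 5.30 and 6.08 in RPMI-8226. IGKC, the constant region of kappa light chains, was at 9.32, 5.35, 5.11 and 5.55 against 5.14, 5.35, 4.82 and 5.74. In each gene 1 array of 8 was high. The departure of this array, its level minus the mean of the other 3 JJN3 arrays after taking off the same quantity in RPMI-8226, was 4.19 for IGHA1 and 4.15 for IGKC. With 1 array per line and treatment a departure has no test.

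The departure reached 4-fold in 3 genes, the third being LMO2 (2.21), where the JJN3 LenDex array was as high as the control array, and in no gene downward. For comparison, 2 genes reached 4-fold upward and 2 downward on the LenDex array, 2 downward on the CPI203 array and 1 downward on the Combo array. Among the next largest upward were CTSB, the lysosomal protease cathepsin B (8.17 against 6.92, 6.99 and 6.43 on the other JJN3 arrays, departure 1.75), JCHAIN (1.51) and XK, a red cell membrane protein (6.71 against 5.59 to 5.65, departure 1.48). IGHA1, IGKC, JCHAIN, CTSB and XK had ARP1 means of 13.97, 13.62, 13.16, 12.78 and 9.75. The largest downward departures were DLST, an enzyme subunit of the citric acid cycle (-1.95), and APOL2 (-1.75).

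Of the 51 genes with an upward departure of 2-fold or more on the JJN3 control array, 16 (31.4%) had an ARP1 mean at least 2-fold above the other JJN3 arrays. The share was 8.31% over all tested genes. Of the 64 with a downward departure, 23 (35.9%) had an ARP1 mean at least 2-fold below them, against 9.44%. For the CPI203, LenDex and Combo arrays the upward shares were 23.5%, 8.33% and 23.1%, and the downward shares 44.2%, 11.9% and 34.8%. The upward share of the control array was the highest of the 4, and its downward share was not. The departure and the ARP1 comparison both take off the mean of the same other JJN3 arrays. Shares above those of all genes can therefore follow from this common term, and they do not show a likeness to ARP1. Whether RNA of another sample entered this array was not tested. SDC1 was at 5.79 on it, against 5.15 to 5.36 on the other JJN3 arrays, and MAF at 6.47 against 5.39 to 5.68.

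**Figure D5:**
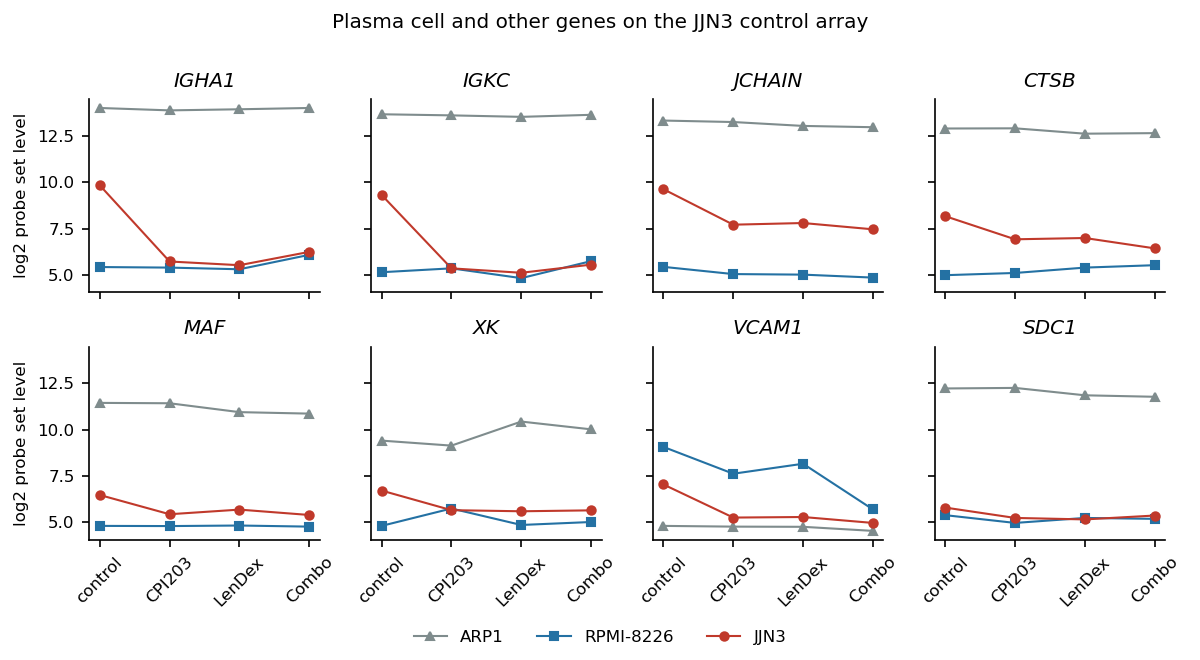
Log2 probe set level (y axis) by treatment (x axis) for 8 genes, with 1 array per line and treatment and lines joining the arrays of a cell line. On the JJN3 control array IGHA1 (9.84) and IGKC (9.32) are high while the other 3 JJN3 arrays lie with RPMI-8226, and SDC1 is low on all 8 arrays and high in ARP1.

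The genes whose pattern over the 8 arrays was most like that of HBG1 were ACSM3, a mitochondrial acyl-CoA synthetase, YES1, a tyrosine kinase of the SRC family, DSCR8, PTAR1 and REXO2, a mitochondrial exonuclease. Their Pearson correlation with HBG1 was 0.995, 0.994, 0.993, 0.993 and 0.992 over the 8 arrays, which share 2 cell lines and 4 treatments. ACSM3 was at 10.41, 10.48, 10.47 and 10.55 in JJN3 and at 7.58, 8.20, 7.99 and 8.38 in RPMI-8226. REXO2 was at 8.75, 8.55, 8.98 and 8.52 against 5.66, 6.65, 5.94 and 6.26. Both genes, like HBG1, were highest on the 2 RPMI-8226 arrays with CPI203 among the arrays of that line.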

How the data were processed

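RNA of 8 cell line samples (4 labelled JJN3, 4 labelled RPMI-8226) was compared, with 4 ARP1 samples as context and in the line-by-drug fit. The authors deposited RMA values for each probe set, which were taken as log2 from their range. Expression Console 1.1 (Affymetrix) and RMA are named in the submitters' processing notes, per the labels, while joint or separate normalization of the arrays is not given in the sources used here. Symbols came from the platform annotation, with RefSeq for current names (45172 of 45253 single-symbol probe sets matched). The line fit in limma 3.58.1 (R 4.3.3) had line and treatment as terms and left 3 residual degrees of freedom. Same-treatment arrays of the lines form the pairs, since the labels give no replicate numbers, and the paired difference profiles correlated with Pearson r of 0.648 to 0.732 across genes. The line-by-drug fit used all 12 arrays, had 2 residual degrees of freedom and takes the drug-by-drug term as common to the lines. The line fit was run on simulated data with independent noise and a constant line effect, and the line-by-drug fit was not. Such data hold no line-by-treatment effects or single-array departures, so they cannot show how the fit behaves with them.

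The named genes were the 15 largest called differences each way with the same sign in all pairs, the marker genes, the 4 leading called members of each list, the smallest p-values of the drug comparisons, the largest departures of the JJN3 control array and the 5 patterns most like HBG1. All other genes named here (among them HBE1, TAL1, GATA1, GFI1B, KEL, UROD, MKI67 and list members that were not called) were chosen after their values were seen. A short list of sex-linked genes stayed in the fits and is not named. The comparison, the gene lists and the rules were chosen with earlier results of these data known. Alternatives were other level filters, probe set rules, normalization, moderation, blocks and left-out arrays. Those for the JJN3 control array were added after seeing the data.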

Additional observations from a re-analysis of the deposited data

Results flagged for a closer look

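In 11 of 322 groups of 4 arrays, 1 array lay far from the rest of its line by Dixon's test, which chance flags in about 1 in 20 groups, and each array of a line is also a different treatment. On the JJN3 control array these were IGHA1 (9.84, nearest 6.24), IGKC (9.32, nearest 5.55), JCHAIN (9.63, nearest 7.80), XK (6.71, nearest 5.65), VCAM1 (7.04, nearest 5.28) and, as the lowest, IVL (5.00, nearest 5.20). MPP1 was highest on the JJN3 LenDex array (9.01, nearest 8.85). In RPMI-8226 they were UTP20 on the control array (7.52, nearest 6.26), MYCN with CPI203 (5.83, nearest 5.50), and IGHA1 (6.08, nearest 5.42) and BNIP3 (10.65, nearest 10.45) with Combo. Of the genes screened, 20 were named for the largest departures of the JJN3 control array, so the number found on that array follows in part from the choice of genes.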

How the results depend on the processing

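The 2820 line calls kept their sign, where tested, under other level filters, cyclic loess, a variance trend, no block, all 12 arrays and each pair left out, and 2669 of 2785 did with the median over probe sets (signs were not compared for probe sets tested singly). The count was 5065 with probe sets tested singly (2934 higher, 2131 lower) and 1163 with no treatment block (644 and 519). It was 1455 to 1918 without the control, CPI203, LenDex or Combo pair (784 to 1015 higher, 671 to 927 lower), where fewer arrays enter. With the median over probe sets HLA-DQB1 (0.02), BYSL (-0.14), AFF4 (-0.02), IKZF2 (0.01) and H2BC21 (-0.18) changed sign. By CPI203 the count of 0 became 5 with no level filter, 3 with the median over probe sets, 47 with a variance trend and robust moderation, 8 with no CPI203 by LenDex term and 0 to 3 without 1 array (3 without the JJN3 LenDex array and 3 without the JJN3 Combo array). By LenDex it became 44 with a variance trend and robust moderation. On the JJN3 control array 1 gene reached 4-fold with the median over probe sets. The cause of these changes was not tested. Signal near the bottom of the scale limits what can be said of genes at about 5.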
